A study of Rattus norvegicus with 15 samples.

Results

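The comparison described here was that of untreated transgenic (TG-C) with untreated wild type (WT-C) rats at 3 months (3 M). It took 6 of the 15 libraries analysed from the study, the 3 labelled transgenic and the 3 labelled wild type whose treatment was given as none. TG rats carried a human transgene on a bacterial artificial chromosome under its own human promoter, were homozygous, and were bred with their WT littermates on an outbred Sprague Dawley background. RNA came from the mucosa and submucosa (MS) tissue layer of the colon, which the labels call colon epithelial. Neither source states that each library was a different rat, so p-values measure the spread between libraries, which may be technical. The question was how the colon of young TG rats differed from that of WT rats. Treated libraries of the same age (WT-Ab and TG-Ab, 3 each, given antibiotics) were set beside the untreated ones where stated.

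The colon mucosa is lined by a single sheet of absorptive, mucus-secreting and hormone-secreting cells, renewed from stem cells in its crypts. Under this sheet lies a connective tissue that holds vessels, nerve fibres, scattered immune cells and lymphoid follicles. A piece of the MS layer is therefore a mixture whose makeup can vary from piece to piece. In such bulk RNA, fewer cells of a type and less RNA per cell cannot be told apart. The gene tables hold Ensembl identifiers with positions on the Rnor6 genome and no symbols, and 0 of the 32883 identifiers could be paired with a symbol, so genes are described by chromosome, position and library, and markers of epithelial, immune, muscle and nerve cells, and thus the labelled tissue, were not analysed here. Levels are given as CPM, a gene's counts divided by the library's total and multiplied by a fixed factor.

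Library totals were 16050385, 17324284 and 18313906 counts in WT-C 1 to 3, and 17676615, 28685094 and 17717725 counts in TG-C 1 to 3. Between 16996 and 17821 genes had at least 1 count. The WT-C libraries lay close together and the TG-C libraries did not. Over the 12038 genes tested, the median absolute difference between 2 WT-C libraries was 0.14 to 0.16 on the log2 scale. It was 0.25 between TG-C 2 and TG-C 3, 0.48 between TG-C 1 and TG-C 2, and 0.55 between TG-C 1 and TG-C 3. The standard deviation over 3 libraries was larger in TG-C than in WT-C for 10445 genes, or 86.8%. Every pair within a group differed by more than the sampling of reads alone would give, with a mean chi-square per gene of 25.9 to 32.1 within WT-C, 97.5 for TG-C 2 with TG-C 3, and 330 and 354 for the pairs with TG-C 1.

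TG-C 1 stood apart from the other 5 libraries. In it, 1753 genes were at least 2-fold above the median of the other 5 and 497 were at least 2-fold below, together 18.7% of the genes tested. In TG-C 2 these counts were 265 and 136 genes, and in TG-C 3 they were 62 and 258. In the WT-C libraries they ran from 39 to 101 above and from 55 to 140 below. The 50 most abundant genes took 15.3% of the counts in TG-C 1 and 21.8% to 25.2% in the others. TG-C 1 correlated with the other 5 libraries at r = 0.85 to 0.87 across 12457 genes (log2 CPM), where the other 5 correlated among themselves at 0.97 to 0.99. With WT-Ab 1 and TG-Ab 1, treated libraries of either genotype, TG-C 1 correlated at 0.96, and with the other 4 treated libraries at 0.85 to 0.89. These correlations are across genes of shared libraries and are given as a description. Results below that rest on TG-C 1 are therefore given with and without it.

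**Figure D1:**
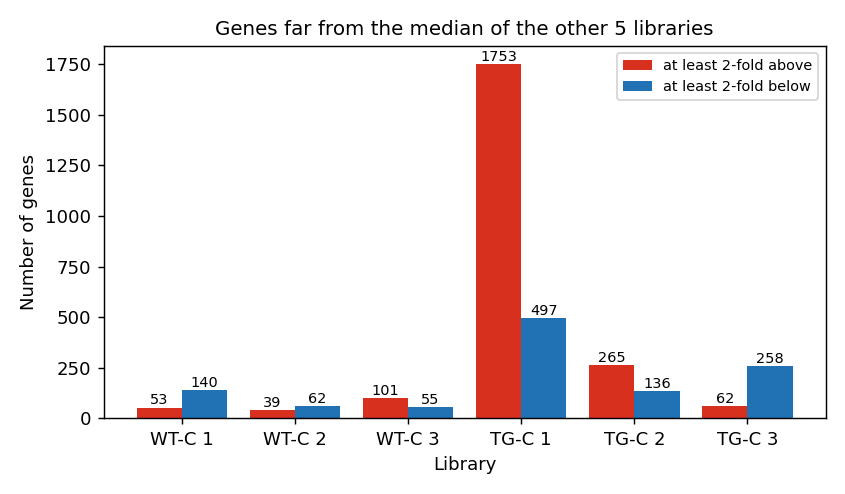
Number of genes (y axis) at least 2-fold above (red) or below (blue) the median of the other 5 untreated libraries, for each library (x axis), over the 12038 genes tested, on log2(CPM + 0.5). TG-C 1 had 1753 genes above and 497 below, against at most 265 and 258 in any other library.

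The genes that set TG-C 1 apart were far lower in the other untreated libraries and were high again in 1 treated library of each genotype. Among genes with a mean of at least 10 CPM over the 6 libraries, 254 on 21 chromosomes were at least 8-fold above the median of the other 5. Their median level was 120.3 CPM in TG-C 1, 4.15 in TG-C 2, 4.01 in TG-C 3, and 4.16 to 6.66 in WT-C. The same genes had medians of 106 CPM in WT-Ab 1 and 63.8 in TG-Ab 1, and 6.57 to 11.03 in the other 4 treated libraries. The high level therefore occurred in TG and in WT libraries. These genes were chosen by their level in TG-C 1, and no test was made on them as a set.

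ENSRNOG00000002776 (chromosome 13, 82369493 to 82387631, Rnor6) lay farthest above. It had 213 CPM in TG-C 1, 0.31 in TG-C 2, 0.056 in TG-C 3, and 0.062, 0.17 and 1.31 in WT-C 1 to 3. In the treated libraries it had 213 CPM in WT-Ab 1 and 101 in TG-Ab 1, and 0.58 to 7.04 in the other 4. ENSRNOG00000018311 (chromosome 1, 197815413 to 197821936) had 269 CPM in TG-C 1, 1.05 and 0.68 in TG-C 2 and 3, 0.50 to 3.44 in WT-C, 268 in WT-Ab 1 and 196 in TG-Ab 1. Both genes thus had the same 3 high libraries, and the third-ranked gene, on chromosome 10 (94497448 to 94500591), had 335 CPM in TG-C 1, 364 in WT-Ab 1 and 268 in TG-Ab 1 against 18.9 or less elsewhere. With all 6 untreated libraries their fold changes did not pass the test (adjusted p = 0.910, edgeR).

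Among genes with a mean of at least 10 CPM, 326 were at least 2-fold below the median of the other 5, with a median of 17.6 CPM in TG-C 1, 38.4 in TG-C 2, 40.0 in TG-C 3 and 45.4 to 47.9 in WT-C. ENSRNOG00000010349 (chromosome 4, 145674157 to 145678066) had 0.17 CPM in TG-C 1 and 0.17 in TG-C 2, but 16.3 in TG-C 3, within the 7.97 to 24.2 of WT-C. ENSRNOG00000056847 (chromosome 9, 27402381 to 27417023) had 0.79, 1.64 and 28.6 CPM in TG-C 1 to 3 and 10.4 to 20.1 in WT-C. In both genes TG-C 1 and TG-C 2 lay below every WT-C library and TG-C 3 did not, so the division of the TG-C libraries was not always TG-C 1 against the other two.

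By chromosome, the shares of counts had a larger standard deviation over the 3 libraries in TG-C than in WT-C on 20 of the 21 chromosomes 1 to 20 and X, and on 18 when shares were taken of the counts outside the mitochondrial genome. The mitochondrial share was low in TG-C 1, which raises the share of every other chromosome there. TG-C 1 had the highest share of the 6 libraries on 17 chromosomes and the lowest on 1, but on 7 and 4 of the non-mitochondrial counts. Chromosomes 20, X, 18 and 12 were among the 7. Chromosome 20 took 3.27% of the counts in TG-C 1, 2.33% in TG-C 2, 2.30% in TG-C 3 and 2.31% to 2.38% in WT-C. The X chromosome took 2.53%, 2.10% and 1.83% in TG-C 1 to 3 and 1.94% to 1.95% in WT-C, so TG-C libraries lay on both sides of a narrow WT-C range. Chromosome 8 did the same, with 5.42%, 5.14% and 4.68% in TG-C 1 to 3 against 4.80% to 4.81% in WT-C. Of the counts outside the mitochondrial genome, chromosome 8 took 5.77%, 5.80% and 5.40% in TG-C 1 to 3. WT-C had 5.43% to 5.57% there, a less narrow range. The exact (Clopper-Pearson) 95% interval of any share of all counts reached at most 0.0168 percentage points to either side, for counting error only.

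Groups did not overlap on 2 chromosomes in shares of all counts. Chromosome 1 took 12.4%, 11.7% and 13.005% of the counts in TG-C 1 to 3 and 13.3% to 13.4% in WT-C, and chromosome 7 took 7.47%, 7.08% and 7.19% in TG-C and 6.85% to 7.05% in WT-C. A two-sided exact permutation test gave p = 0.1 for each, the smallest that 3 libraries against 3 allow, and 0.629 after adjustment over the 22 shares tested (chromosomes 1 to 20, X and mitochondrial). None of the 22 shares passed the test. Neither chromosome was without overlap in shares of non-mitochondrial counts. There chromosome 1 took 15.01% in TG-C 3 against 15.005% to 15.5% in WT-C, and chromosome 7 took 7.96% in TG-C 1 against 7.94% to 7.98% in WT-C. On that scale TG-C instead lay above WT-C on chromosomes 10, 15 and 17, each again with an exact permutation p = 0.1. Which chromosomes separated the groups therefore changed with the total used.

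**Figure D2:**
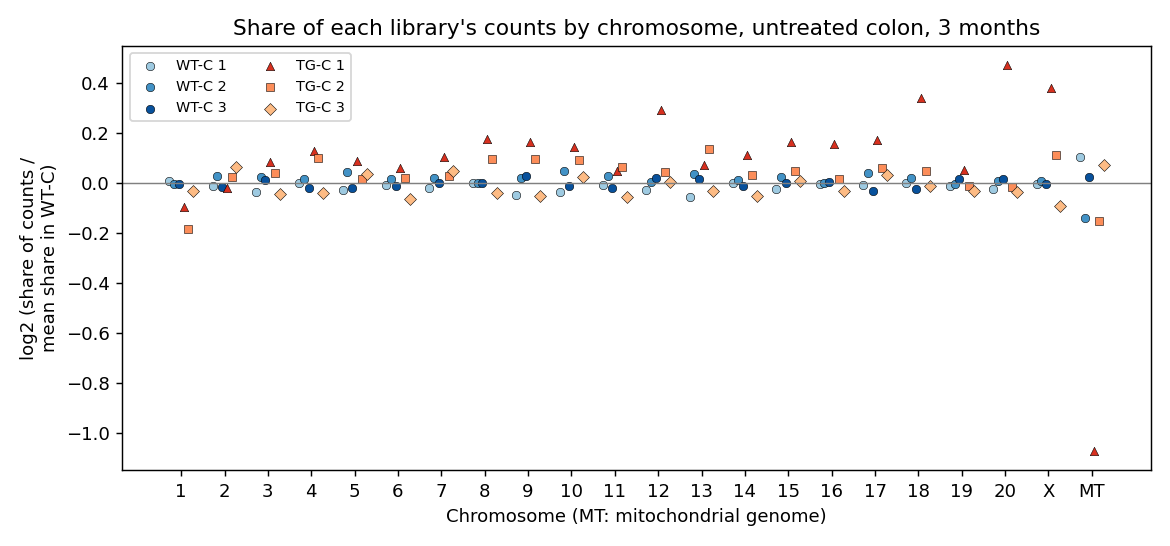
Share of each library's counts that fell on each chromosome (x axis), as the log2 ratio to the mean share in WT-C (y axis), with blue circles for WT-C 1 to 3 and red or orange symbols for TG-C 1 to 3. TG-C 1 lies highest on chromosomes 20, X, 18 and 12 and lowest on the mitochondrial genome, where its share was 6.05%.

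A single gene held more than the whole difference on chromosome 1. The gene at 214664537 to 214693043, among the most abundant in WT-C, had 25522, 22297 and 23316 CPM in WT-C 1 to 3 and 5250, 9540 and 17135 CPM in TG-C 1 to 3. The TG-C mean minus the WT-C mean was -13070 CPM for this gene and -9150 CPM for the whole chromosome. All 3 TG-C libraries were below all WT-C libraries, but TG-C 3 was nearer to WT-C than to TG-C 1. The log2 fold change of -1.11 (SE 0.49) did not pass the test (adjusted p = 0.910, edgeR). The genes with the next largest differences on this chromosome, at 201620642 to 201689759 and 203160323 to 203228318, had 273 and 188 CPM in TG-C 1 and 476 and 262 in TG-C 2, but 1794 and 1583 in TG-C 3. WT-C had 1314 to 2660 CPM of the first and 1146 to 1922 of the second. For both genes TG-C 3 lay within the WT-C range and the other TG-C libraries lay below it.

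The excess on chromosome 20 in TG-C 1 lay mostly near the chromosome's start. The first 6 Mb, chosen after the values were seen, took 1.53% of the counts in TG-C 1, 0.799% in TG-C 2, 0.842% in TG-C 3 and 0.810% to 0.867% in WT-C. The rest of the chromosome took 1.74% in TG-C 1 and 1.45% to 1.55% in the other 5 libraries. In treated libraries the first 6 Mb took 1.44% in WT-Ab 1, 1.36% in TG-Ab 1 and 0.903% to 0.984% in the other 4. The rat major histocompatibility complex, RT1, a cluster of genes with which cells present antigens, is known to lie near the start of this chromosome, and which of the genes counted belong to it was not analysed. The 3 genes with the largest difference were neighbours, at 4066132 to 4070721, 4087618 to 4097190 and 4127644 to 4132616. They had 1046, 901 and 1523 CPM in TG-C 1 and each had between 67.5 and 218 CPM in the other untreated libraries. Of the 148 genes tested in the first 6 Mb, 94 (63.5%) were highest in TG-C 1, against 45.0% of all genes tested, and 44 (29.7%) were at least 2-fold above the median of the other 5, against 14.6% of all. Only 1 (0.676%) was called different between the genotypes, near the share over all genes given below. As the region was chosen with the values of TG-C 1 seen, its excess of genes high in TG-C 1 is a description.

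On the X chromosome the same library led. The gene at 28593405 to 28595395 had 2054 CPM in TG-C 1, 313 and 443.7 in TG-C 2 and 3, and 361 to 467 in WT-C. The gene at 156463953 to 156487245 instead had 1537 CPM in TG-C 2, 848 in TG-C 1 and 385 in TG-C 3, on both sides of the 775 to 811 in WT-C. No library showed expression across the Y chromosome. Of its 48 annotated genes 7 had any count, 1 of them with 34 to 102 counts per library and the other 6 with at most 3.

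Over windows of 1 Mb with at least 3 genes and a mean of 100 CPM, the difference of TG-C 1 was spread over the genome. Of 1316 windows, 61 were at least 2-fold above the median of the other 5 in TG-C 1 and 15 at least 2-fold below, against at most 6 above and 6 below in any other library. The window farthest above, from 55 Mb on chromosome 13, had 1115 CPM in TG-C 1, 38.5 and 33.9 in TG-C 2 and 3, and 38.2 to 47.6 in WT-C. It had 1171 CPM in WT-Ab 1 and 540 in TG-Ab 1, and 41.6 to 86.0 in the other 4 treated libraries. In CPM over all counts, TG-C lay above WT-C without overlap in 46 of the 1316 windows and below in 75, and the groups overlapped in 1195. For single genes the shares without overlap were 2.59% above and 6.08% below. The windows were not tested for a difference between genotypes.

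The mitochondrial genome, which encodes subunits of the respiratory chain and the RNAs to translate them, took 6.05% of the counts in TG-C 1, 11.5% in TG-C 2, 13.4% in TG-C 3, and 13.7%, 11.6% and 12.9% in WT-C 1 to 3. Of its 37 genes 16 were tested, and 15 of these had their lowest level of the 6 libraries in TG-C 1. The gene at 5323 to 6867 of the mitochondrial sequence, the most abundant, had 23058 CPM in TG-C 1, 49624 in TG-C 2, 58840 in TG-C 3 and 49180 to 58047 in WT-C. All 16 log2 fold changes were below 0, from -0.49 to -0.13, and none passed the test, with an adjusted p of at least 0.910. TG-C 2 and TG-C 3 lay in and around the WT-C range.

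Tested gene by gene, 317 of 12038 genes had an unadjusted p under 0.05, fewer than the 602 that a uniform spread of p-values would give. This count was 726 of 11400 without TG-C 1 and 114 of 12004 without WT-C 1. With limma voom and sample quality weights it was 918 of 12038, so the shortfall depended on the libraries and the test. In the main test, at an unadjusted p under 0.05 and a fold of at least 2, 75 genes were called, or 0.623% of those tested. Of these 54 were higher in TG-C (0.449%) and 21 lower (0.174%). At an adjusted p under 0.05, 0 genes were called by edgeR's quasi-likelihood test, whose smallest adjusted p was 0.910, while the DESeq2 Wald test called 13, edgeR's likelihood ratio test 4 and limma voom with sample quality weights 1. Of the 13 genes called by DESeq2, 3 were higher and 10 lower in TG-C. The median log2 fold change over all genes tested was 0.06.

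The 75 genes were scattered over 20 of the 21 chromosomes 1 to 20 and X. Chromosome 1 held 8 called higher and 1 lower of 1492 tested (0.603%), close to the share over the genome. Chromosome 10 held 6 higher and 1 lower of 1038, and chromosome 8 held 2 higher and 4 lower of 694. Chromosome 19 had the highest share, 1.61%, from 3 genes higher and 3 lower of 373, and chromosome 12 had 0 of 406. Median log2 fold changes per chromosome ran from 0.03 on chromosome 19 to 0.12 on chromosome 20.

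**Figure D3:**
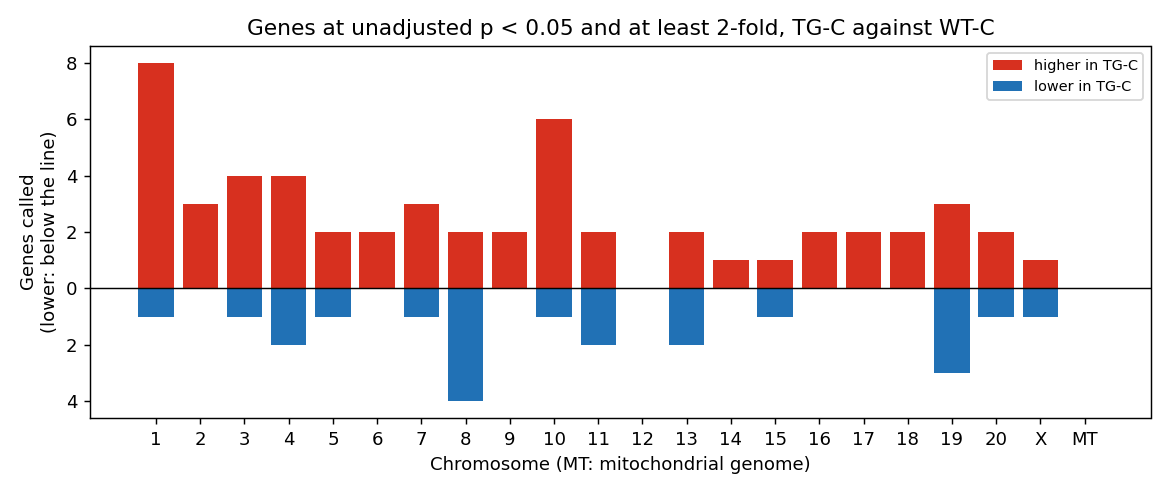
Number of genes called at an unadjusted p under 0.05 and a fold of at least 2 (y axis) on each chromosome (x axis), higher in TG-C above the line in red and lower below it in blue. The 54 higher and 21 lower genes are spread over all chromosomes shown except 12 and the mitochondrial genome.

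TG-C 1 was the highest of the 3 TG-C libraries in 37 of the 54 genes called higher, and the lowest in 12 of the 21 called lower. Without TG-C 1, 88 of 11400 genes were called (0.772%), 50 higher and 38 lower, and 33 of the 75 were still among them, 17 of those higher and 16 of those lower. A further 22 of the 54 higher genes were no longer tested, since no other library reached 4 CPM. All 53 that were tested kept their sign, in fits that shared every library but TG-C 1. Over the 32 higher genes still tested the median log2 fold change was 1.38 with TG-C 1 and 1.09 without, and over the 21 lower genes the median size was 1.43 and 1.24. The count of calls stayed within 1.5 times without TG-C 1 or without WT-C 2 (69 calls). Leaving out any other library moved it by more, to 39 without WT-C 1, 45 without WT-C 3, 467 without TG-C 2 and 687 without TG-C 3.

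**Figure D4:**
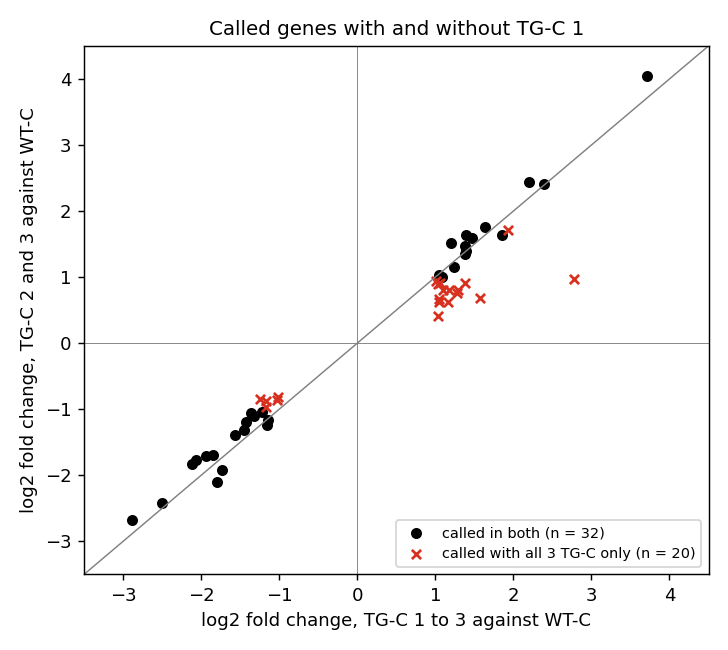
Log2 fold change of called genes with all 3 TG-C libraries (x axis) and with TG-C 2 and 3 alone (y axis), for 52 of the 53 genes tested both ways. Black circles (32 genes) were called both ways and red crosses (20 genes) were called only with TG-C 1 included; the grey diagonal marks equal values, and no point changes sign.

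Counted by overlap alone, the balance of directions was the other way. All TG-C libraries were above all WT-C libraries in CPM for 312 genes (2.59%) and below for 732 (6.08%). After TMM scaling, which corrects library totals for the abundant genes that take unequal shares, these counts were 461 and 563, or 3.83% and 4.68%. With 3 libraries against 3 in random order, a share of 0.1 of genes would not overlap, both directions together. The balance of directions was not tested. Among the called genes, 24 of the 54 higher and all 21 of the lower did not overlap between groups.

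Each gene described in the next paragraphs had an adjusted p of 0.910 by edgeR's quasi-likelihood test in the untreated comparison, so the calls rest on the unadjusted p. Among called genes without overlap and with a mean of 4 CPM or more in TG-C, 2 with large rises were carried by TG-C 1. ENSRNOG00000008919 (chromosome 8, 120323897 to 120446507) had 20.99 CPM in TG-C 1, 0.35 in TG-C 2 and 0.45 in TG-C 3, and 0.25, 0.29 and 0.33 in WT-C 1 to 3. Its log2 fold change was 4.54 (SE 1.73), although TG-C 2 and 3 lay just above WT-C, and it was not tested without TG-C 1. ENSRNOG00000012815 (chromosome 9, 45528928 to 45559140) had 19.3, 1.32 and 1.07 CPM in TG-C 1 to 3 and 0.52 to 1.04 in WT-C, with a log2 fold change of 3.01 (SE 1.19). Both genes were also high in WT-Ab 1, at 19.9 and 19.5 CPM, and in TG-Ab 1, at 9.89 and 16.1 CPM, and were 2.31 CPM or lower in the other 4 treated libraries.

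Other called rises were shared by the 3 TG-C libraries. The gene on chromosome 1 at 82327955 to 82344345 had 54.4, 71.5 and 62.5 CPM in TG-C 1 to 3 and 14.8, 33.5 and 20.1 in WT-C 1 to 3, a log2 fold change of 1.47 (SE 0.33) that was 1.598 without TG-C 1. It had 10.6 to 17.4 CPM in all 6 treated libraries of either genotype. The gene on chromosome 20 at 14050465 to 14060264, which had one of the 5 smallest p-values, had 20.9, 17.2 and 16.2 CPM in TG-C and 8.72 to 9.83 in WT-C, a log2 fold change of 0.997 (SE 0.16), and it fell just short of the 2-fold threshold. On chromosome 1, the gene at 264160129 to 264172729 had its highest level in TG-C 2, with 275 CPM, against 91.9 in TG-C 1, 40.2 in TG-C 3 and 21.6 to 35.8 in WT-C. TG-C 1 was thus not always the extreme library. On chromosome 5, the gene at 173624310 to 173626248 had 12.05, 10.2 and 4.57 CPM in TG-C 1 to 3 and 2.02 to 2.99 in WT-C, a log2 fold change of 1.85 (SE 0.39). Chromosome 10 held 2 more of the rises. The gene at 57278307 to 57283653 had 49.3 to 82.4 CPM in TG-C against 7.85, 14.1 and 38.2 in WT-C 1 to 3, and the gene at 86683875 to 86690815 had 7.92, 10.9 and 16.2 in TG-C 1 to 3 against 3.75 to 5.30. At 102311116 to 102338520 on chromosome 6, TG-C had 19.8 to 25.2 CPM and WT-C 3.68 to 12.7. In these 3 genes TG-C 1 was not the highest TG-C library. It was the highest for the gene on chromosome 16 at 31252480 to 31301880, with 8.37, 3.59 and 1.98 CPM in TG-C 1 to 3 and 1.15 to 1.79 in WT-C, and for that on chromosome 15 at 51843564 to 51855325, with 28.5, 8.96 and 14.8 in TG-C 1 to 3 and 5.11 to 7.56 in WT-C. Log2 fold changes of these 5 genes ran from 1.39 to 1.63. Without TG-C 1 the gene on chromosome 15 had 0.91, under the 2-fold threshold, and the gene on chromosome 16 was not tested. The gene on chromosome 15 was also high in WT-Ab 1, at 22.8 CPM, and TG-Ab 1, at 16.2, against 2.76 to 4.45 in the remaining treated libraries.

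Among genes called lower, the largest changes were seen in all 3 TG-C libraries. ENSRNOG00000013280 (chromosome 15, 62406873 to 62429449) had 4.49, 9.52 and 2.89 CPM in WT-C 1 to 3 and 0.45, 0.10 and 1.69 in TG-C 1 to 3, a log2 fold change of -2.89 (SE 1.03). ENSRNOG00000053179 (chromosome 10, 43851950 to 43856911) had 32.5, 16.3 and 78.1 CPM in WT-C and 6.85, 9.69 and 5.47 in TG-C, a log2 fold change of -2.51 (SE 0.58). Their values without TG-C 1 were -2.69 and -2.42. In both genes every TG-C library was below every WT-C library. In CPM the WT-C libraries differed among themselves by more than the TG-C libraries did. On the log2 scale this held for ENSRNOG00000053179 only, and the TG-C libraries differed by more for ENSRNOG00000013280.

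The gene on chromosome 5 at 2813131 to 2843483 had nearly uniform WT-C values, with 40.8, 42.8 and 42.3 CPM, and 5.83, 11.5 and 12.1 CPM in TG-C 1 to 3. Its log2 fold change was -2.06 (SE 0.33). Without TG-C 1 it was -1.77 (SE 0.12) and was the only gene at an adjusted p under 0.05, with 0.0453, and limma voom with sample quality weights gave it an adjusted p of 0.0420 over all 6 libraries. In treated libraries the genotypes overlapped, with 23.7, 33.3 and 54.5 CPM in WT-Ab and 33.6, 38.9 and 45.4 in TG-Ab. On chromosome 11, the gene at 82194657 to 82252139 had 135, 107 and 121 CPM in WT-C and 40.9, 50.7 and 62.5 in TG-C, a log2 fold change of -1.22 (SE 0.22). On chromosome 4, the gene at 161804784 to 161850875 had 43.7, 35.6 and 53.9 CPM in WT-C and 13.5, 12.97 and 21.3 in TG-C, a log2 fold change of -1.45 (SE 0.29). For both, TG-C 3 was the TG-C library nearest to WT-C.

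The gene on chromosome 8 at 73593310 to 73594332 had 27.0, 23.8 and 21.8 CPM in WT-C and 9.62, 5.12 and 7.17 in TG-C. Its log2 fold change was -1.73 (SE 0.25), and -1.93 without TG-C 1, and DESeq2 gave it an adjusted p of 1.32e-05 against edgeR's 0.910. It was low in treated rats of both genotypes, at 1.66, 4.79 and 9.35 CPM in WT-Ab and 1.94 to 2.03 in TG-Ab. Also on chromosome 8, the gene at 76449081 to 76452554 had 127, 60.6 and 110.2 CPM in WT-C and 13.5, 15.2 and 37.8 in TG-C, a log2 fold change of -2.11 (SE 0.52). On chromosome 13, the gene at 56730397 to 56763981 had 41.2, 45.5 and 29.05 CPM in WT-C and 9.84, 17.95 and 14.7 in TG-C, a log2 fold change of -1.43 (SE 0.31). On chromosome 19, the gene at 52258947 to 52262959 had 8.10, 5.14 and 4.37 CPM in WT-C and 0.96, 0.80 and 2.71 in TG-C, a log2 fold change of -1.94 (SE 0.61).

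**Figure D5:**
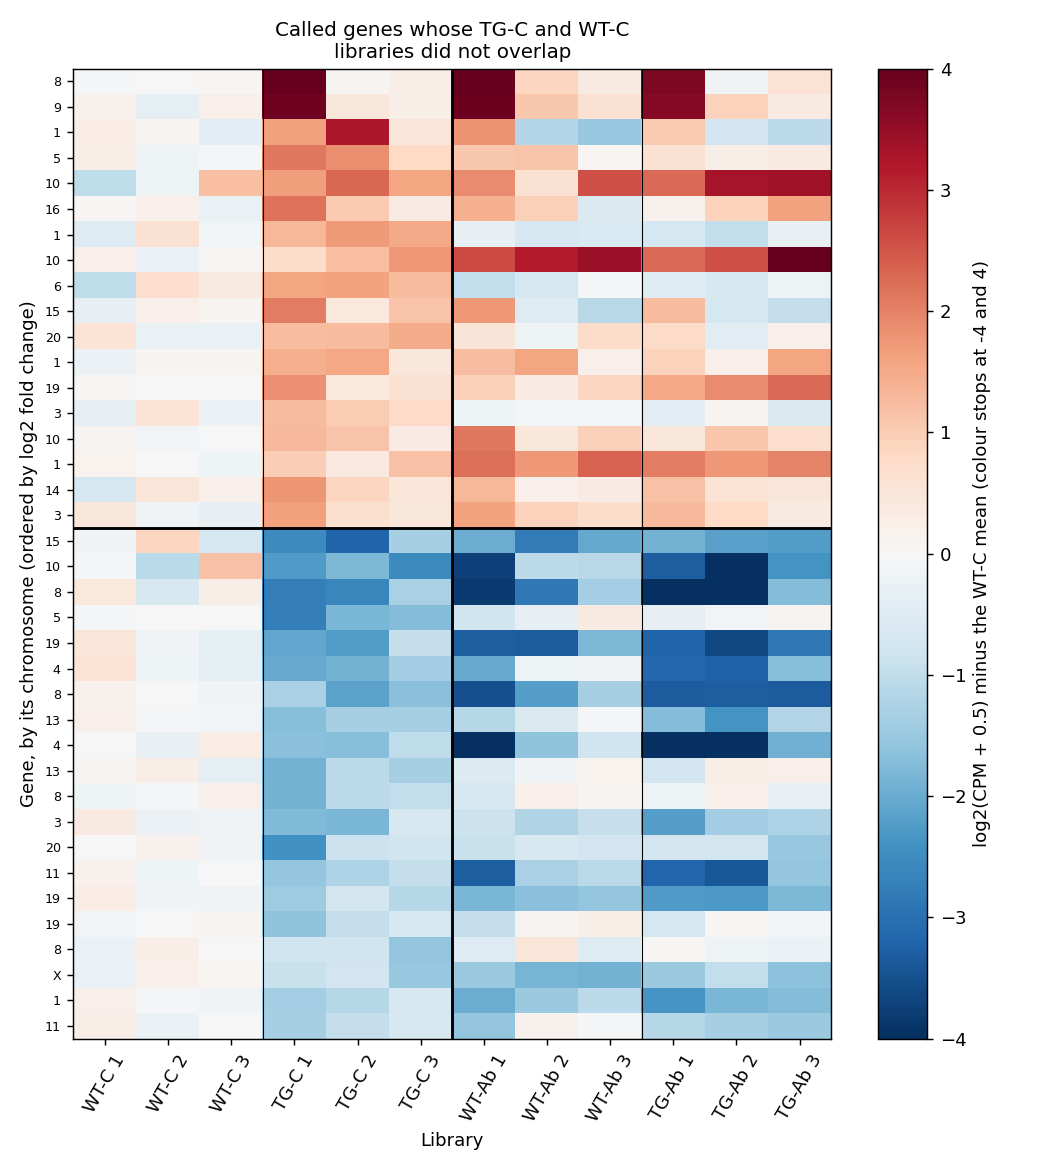
Levels of 18 genes called higher (upper block) and 20 called lower (lower block) whose untreated groups did not overlap, each row a gene labelled by its chromosome and each column a library, as log2(CPM + 0.5) minus the mean of WT-C (colour). Columns 1 to 6 are the untreated libraries and the last 6 the treated ones; the top 2 rows are dark red only in TG-C 1, WT-Ab 1 and TG-Ab 1.

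The same genotypes were also measured after antibiotics, in libraries not shared with the untreated comparison. There, 63 of 12274 genes were called (0.513%), 44 higher and 19 lower in TG-Ab, and 1 gene passed an adjusted p of 0.05, against 0 with the replicate block, a fit that takes libraries of the same number as pairs. Values after antibiotics are from the fit without this block. Of the 75 genes called in untreated rats, 66 were tested after antibiotics and 28 had the same sign. This was 14 of 50 genes called higher and 14 of 16 called lower. Over all 11855 genes tested in both, the share was 46.1%, with both directions pooled. A share for each direction was not computed, so neither count has its own background here. Genes called in the same direction both times numbered 4, of which 3 are described. In an interaction term over all 12 libraries, no gene's genotype effect differed between untreated and treated rats at an adjusted p under 0.05. This was 0 of 12457 genes by edgeR, with a smallest adjusted p of 0.998. At an unadjusted p under 0.05 there were 184, fewer than a uniform spread of p-values would give. The absence of calls therefore does not show that the effects were alike.

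On chromosome 4, the gene at 119182135 to 119188251 had 30.3, 18.1 and 15.999 CPM in WT-C and 4.75, 5.19 and 7.62 in TG-C, a log2 fold change of -1.85 (SE 0.36). After antibiotics it had 4.72, 17.9 and 18.9 CPM in WT-Ab and 1.90, 1.77 and 6.06 in TG-Ab, a log2 fold change of -2.10 (SE 0.73), with WT-Ab 1 below TG-Ab 3. On chromosome 13, the gene at 100980574 to 101043110 had 10.2, 8.37 and 8.25 CPM in WT-C and 2.38, 3.28 and 3.27 in TG-C, and 3.76, 5.83 and 8.46 in WT-Ab against 2.30, 1.30 and 3.66 in TG-Ab, with log2 fold changes of -1.57 and -1.33. On chromosome 19, the gene at 14508616 to 14515456 was higher both times, with 3.98 to 4.17 CPM in WT-C against 15.8, 5.65 and 6.43 in TG-C, and 5.25 to 8.42 in WT-Ab against 12.8 to 21.4 in TG-Ab, with log2 fold changes of 1.17 and 1.23. Without TG-C 1 the untreated value of this gene was 0.62, under the 2-fold threshold. Over both treatments, with treatment as a term, 36 of 12457 genes were called (0.289%), 22 higher and 14 lower in TG. Of the 75 genes, 13 were among them. That fit holds the untreated libraries by which the 75 were chosen, so this overlap is partly built in. The 3 genes had adjusted p-values of 0.817 in that fit.

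The gene with the smallest p after antibiotics, on chromosome 1 at 84573496 to 84573959, had 27.1, 20.8 and 23.3 CPM in WT-Ab and 0.92, 0.57 and 0.51 in TG-Ab, a log2 fold change of -5.15 (SE 0.29, adjusted p = 0.0112). In untreated rats it had 20.9, 0.81 and 0.71 CPM in WT-C and 68.1, 16.7 and 22.5 in TG-C, where the groups overlapped and the log2 fold change of 2.23 (SE 1.39) did not pass the test (adjusted p = 0.910). Levels near 1 CPM or below and levels above 16 CPM both occurred in WT libraries of the untreated group, so the gene divided libraries of 1 genotype as well as genotypes.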

How the data were processed

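Each library has 1 table of raw counts per gene as the authors deposited it. Per the file headers, they counted single reads with featureCounts 2.0.0 over exons of Rnor6, with strand setting 2 and a mapping quality of at least 3, so reads that fit near-identical genes equally well are left out and such genes are uncertain. Further tools in the submitters' processing notes are bcl2fastq 2.19.1 and STAR 2.5.4a. The labels give a NEBNext kit with poly(A) selection and the study's methods a kit for 3' ends, and which was used was not settled. Deviations from the median of the other libraries correlated with exon length (Spearman, across genes) at 0.22 in TG-C 2 and -0.29 in TG-C 3, and at -0.12 to 0.09 in the other 4.

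CPM used all counts of a library. Genes that reached 4 CPM in any library compared were scaled by TMM and tested with glmQLFit (robust) and glmQLFTest of edgeR 4.0.16 in R 4.3.3, two-sided, with Benjamini-Hochberg adjustment over all genes tested. Other filters, scalings and tests (DESeq2 1.42.0, limma 3.58.1) and leaving out each library were tried, shares without mitochondrial counts were added after the data were seen, and each test was run on simulated counts. Groups and replicate numbers came from the labels. Deviations from the group means of same-numbered libraries correlated at -0.01, 0.31 and -0.16 between WT-C and TG-C, so these were not taken as pairs. Between WT-Ab and TG-Ab they correlated at 0.59, 0.30 and 0.56. Libraries of different numbers were not compared in this way, and WT-Ab 1 and TG-Ab 1 shared a set of high genes. Whether the treated libraries pair was therefore not settled. As planned, the values given for the treated libraries are from the fit without pairs, with the paired counts beside them.

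The genes described are those with the largest changes among called genes without overlap between groups (higher group at 4 CPM or more), the smallest p-values, the largest distance of TG-C 1 (mean of 10 CPM or more), and calls shared with treated rats, and by chromosome those with the largest difference in CPM. Identifiers are printed for at most 2 genes each way in a comparison. The members and lists were chosen with earlier results of these data known. The 33 gene lists set up by symbol could not be used. The rule took at most 10 genes each way from called genes, and 1 that it picked is not reported here. WT rats over 12 months old were not used here.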

Additional observations from a re-analysis of the deposited data

How the results depend on the processing

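Counts of calls depended on the filter and the test. For TG-C against WT-C, the count of 75 called genes became 237 with no filter, 122 with filterByExpr, 33 with 4 CPM in every library, 176 with DESeq2, 468 with the likelihood ratio test and 189 with limma voom, and 39 to 687 with 1 library left out. At an adjusted p, 0 became 13 with DESeq2, 4 with the likelihood ratio test, 1 with limma voom and 0 to 1 with 1 library left out. DESeq2 size factors, library totals alone, leaving out mitochondrial genes, all 4 groups in 1 fit and the replicate block (62 calls, 33 higher and 29 lower) stayed within 1.5 times. Of the 23 genes picked as called or by p, none changed direction in the fits that tested it. Their groups did not overlap in CPM, so a change of direction was hardly possible. The call was lost for 8 of them with all 4 groups in 1 fit, 7 without WT-C 1, 7 without WT-C 2 and 5 with limma voom. None was lost with DESeq2 size factors or library totals alone. Genes picked for their distance in TG-C 1 were not followed through these fits, and without TG-C 1 ENSRNOG00000056847 went from -0.44 to 0.09 and the gene at 94497448 on chromosome 10 from 5.46 to -0.95. In shares of counts outside the mitochondrial genome, TG-C 1 was highest on 7 chromosomes rather than 17 and lowest on 4 rather than 1, since the low mitochondrial share raises the others. The cause of these differences was not tested.

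For TG-Ab against WT-Ab, 63 became 151 with no filter, 26 with 4 CPM in every library, 95 with DESeq2, 246 with limma voom and 41 to 152 with 1 library left out (152 without WT-Ab 1, 41 without WT-Ab 2, 98 without TG-Ab 1). The 1 gene at an adjusted p became 0 with 4 CPM in every library, limma voom, the replicate block (81 calls at the unadjusted p) or all 4 groups in 1 fit, 16 with DESeq2, 5 with the likelihood ratio test, and 0 to 1 with 1 library left out, being 0 without WT-Ab 1, 2 or 3 or TG-Ab 2 or 3.

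For genotype over both treatments, 36 became 212 with no filter, 64 with filterByExpr, 6 with 4 CPM in every library, 211 with limma voom, 68 with the replicate block, 129 without WT-Ab 1, TG-C 1 and TG-Ab 1, and 22 to 381 with 1 library left out (381 without WT-Ab 1, 84 without TG-C 3, 23 without WT-C 1, 22 without TG-C 2). The 1 gene at an adjusted p became 0 with 4 CPM in every library or without those 3 libraries, 12 with DESeq2, 5 with the likelihood ratio test, and 0 to 2 with 1 library left out (0 without WT-C 1, WT-C 2 or WT-Ab 2, 2 without WT-Ab 1).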
